A study of Trametes gibbosa with 15 samples.

Results

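The loci described here are newly assembled loci that overlap another newly assembled locus on the opposite strand. They were found from position alone: 2 loci formed a pair when their spans shared at least 1 base on the same scaffold and lay on opposite strands, with no measured level used. Of 847 newly assembled loci, 168 (19.83%) met this rule, 84 on the plus strand and 84 on the minus strand, and they formed 94 pairs on 49 of the 89 scaffolds that carry such loci. The whole table lists 12885 genes, of which 12038 carry identifiers of the reference annotation.

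RNA was measured in Trametes gibbosa (also named Lenzites gibbosa), a fungus that decays wood by white rot. The mycelium of strain CB-1 came from stationary liquid cultures grown for 10 days at 25 °C in a medium low in nitrogen with added glucose. In the 4 wood groups, 2 g of poplar (Populus simonii × P. nigra) chips were then added and the mycelium was harvested after 3, 5, 7 or 11 days, while the control was harvested without wood when the chips were added to the rest. Each of the 5 groups had 15 of 75 bottles, used as 3 biological replicates, which gives 12 wood and 3 control libraries. The wood cultures were also older than the control, so wood and culture age cannot be told apart. Libraries held 32472274 to 48361622 estimated counts. The codes in the labels split the libraries into 2 series: a first with the 3 controls and replicate 1 of days 3, 5 and 7, and a second with the other 9 wood libraries, which includes all of day 11.

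When both strands of a stretch of DNA are transcribed, each transcript is antisense to the other where they overlap. In the compact genomes of fungi such overlaps are common, often at the 3′ ends of neighbouring genes that face each other, and an antisense transcript may or may not encode a protein. In several fungi and other eukaryotes some antisense transcripts are known to lower or to raise the level of the transcript they face, while many have no known role. The deposited files give no product for any of these loci, so they are named here by identifier.

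The library protocol in the labels names no step that keeps the strand of the RNA. If none was kept, reads from bases where exons of both partners lie cannot be assigned by strand, and the split of such reads between partners is an estimate by the authors' software. The strand given to a locus, and so its place in a pair, would then rest on splice sites alone, which were not checked. In RNA from whole mycelium, fewer cells of a type and less RNA per cell cannot be told apart either.

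The pairs were mostly close overlaps. In 51 of 94 pairs one locus lay wholly inside the span of the other, 27 times the minus-strand locus and 24 times the plus-strand locus. Another 27 pairs met tail to tail, sharing their 3′ ends, and 16 met head to head, sharing their 5′ ends. Spans overlapped by 56 to 91662 bases, with a median of 1034. Exons overlapped in 82 pairs, by 39 to 18864 bases with a median of 754.5, and in the other 12 pairs the spans overlapped without a shared exon base. The overlap covered a median of 92.8% of the exon bases of the more covered partner and 49.68% of the less covered one, and in 47 pairs it covered 90% or more of one partner.

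Every one of the 847 newly assembled loci has at least one transcript with 2 or more exons. The overlapping loci were longer than the other 679 newly assembled loci, with a median span of 1321 against 890 bases and median exon bases of 1184 against 790. A longer span is likelier to overlap another, so these lengths describe the choice of loci and are no finding. They carried a mean of 4.29 transcripts against 2.12, although the median was 1 in both sets. Most overlapping loci had a single partner (154 of 168), 10 had 2 partners, 2 had 3 and 2 had 4. In 8 of the 168 loci the span of the gene was wider than the transcripts listed for it. Judged by the listed transcripts, all 94 pairs still overlapped and 4 fell into another of these arrangements.

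**Figure D1:**
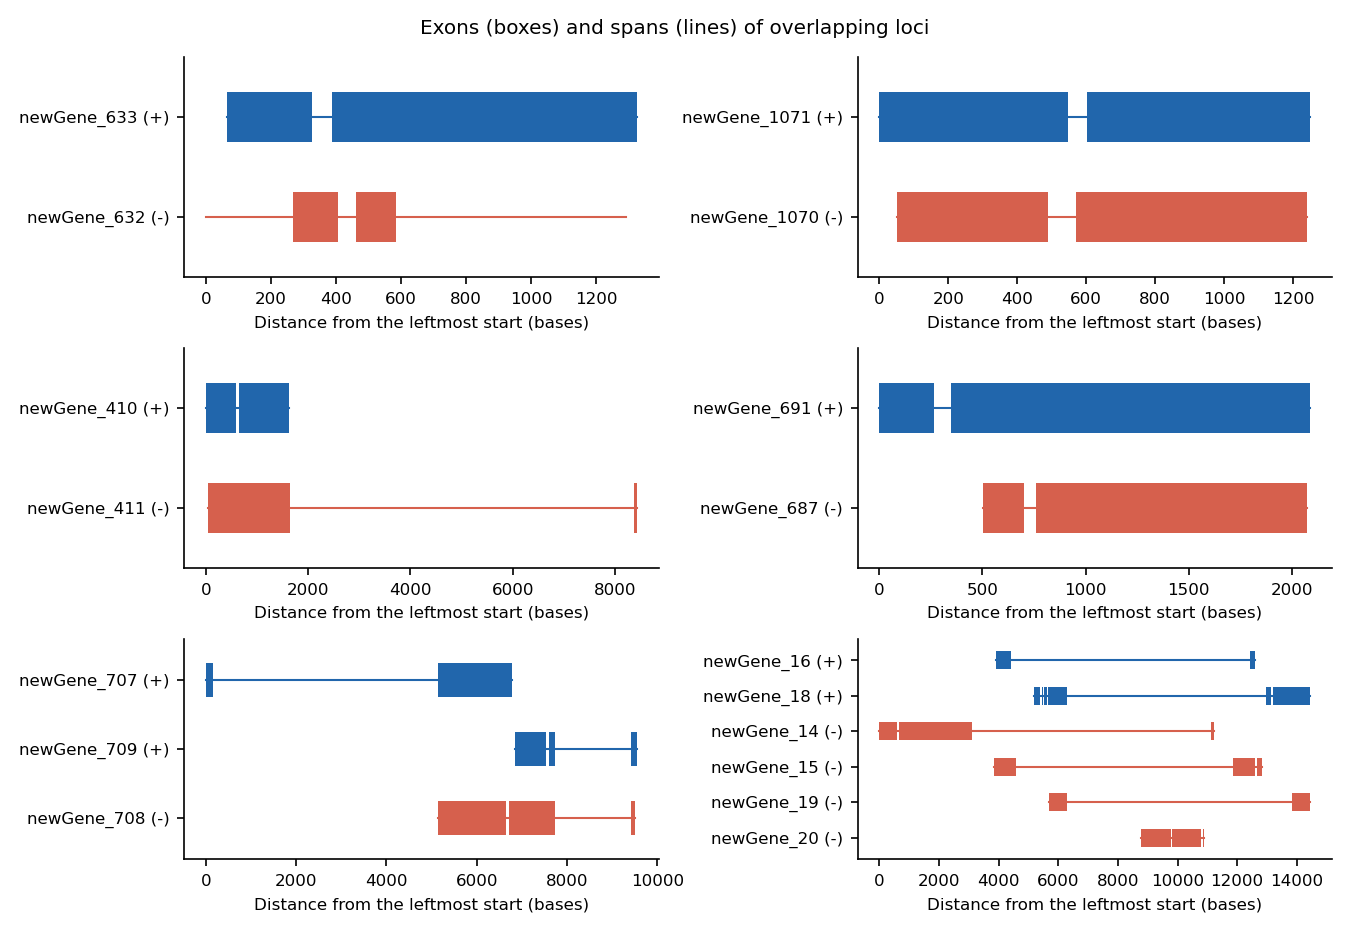
Exons (boxes) and spans (lines) of 6 groups of overlapping loci, by distance in bases from the leftmost start, with plus-strand loci in blue above minus-strand loci in red. Exons of newGene_1071 and newGene_1070 lie almost base for base on each other, while exons of newGene_18 and newGene_15 share no base.

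Most of the overlapping loci were present at low levels. Their median level over the 15 libraries was 0.527 FPKM (fragments scaled for transcript length and library size, which allows levels to be compared between genes), with quartiles of 0.202 and 1.32 FPKM. The median was 0.367 FPKM in the other newly assembled loci and 10.8 FPKM in the reference genes. A level above 1 FPKM was reached by 48 of the 168 loci and one above 10 FPKM by 10. Counts of 0 made up 20.2% of their 2520 counts by locus and library, against 21.89% in the other newly assembled loci and 7.16% in the reference genes, and 77 of the 168 loci had reads in every library. Together the 168 loci took 0.334% to 1.65% of all counts in wood libraries and 0.439% to 0.611% in controls. The highest wood value came from the unnumbered day 5 library, without which the wood libraries reached 0.948%. Between 75.0% and 96.2% of that came from newGene_286, newGene_287 and newGene_800 alone, and the other 165 loci took 0.0454% to 0.131% of all counts.

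Partners were seldom at the same level. The mean FPKM of the higher partner was a median of 3.32 times that of the lower (quartiles 1.70 and 11.1), with 26 pairs more than 10-fold apart and 31 less than 2-fold. In the 51 pairs with one locus inside the other, the outer locus had the higher FPKM in 43. The partner with more exon bases was the higher one in 70 of 94 pairs, and the partner with more transcripts in 59 of the 68 pairs where the number of transcripts was unequal. The length and the number of transcripts of an assembled locus depend on the reads it received, so they are not measures independent of its level.

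**Figure D2:**
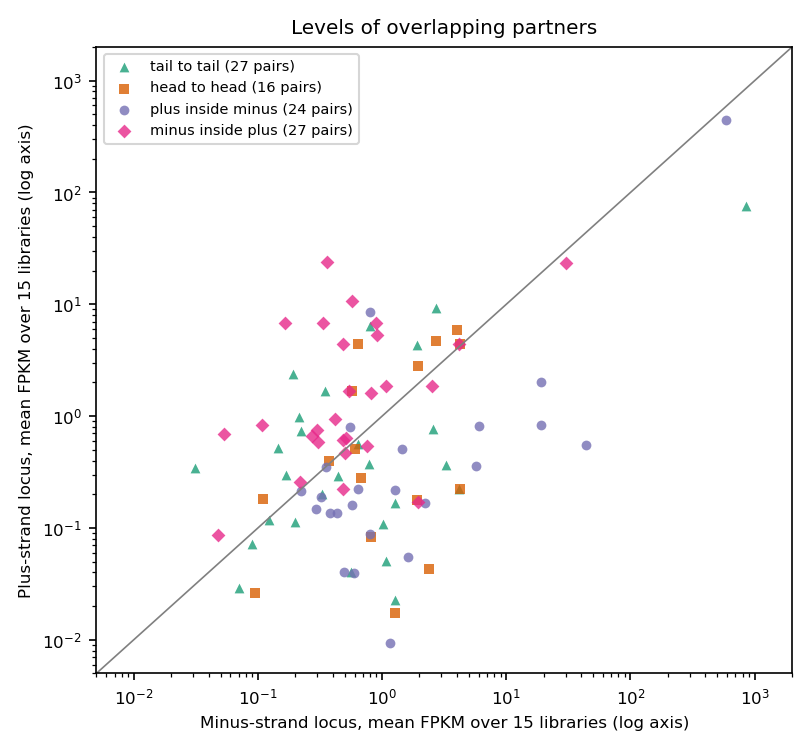
Mean FPKM over 15 libraries of the plus-strand locus (vertical log axis) and the minus-strand locus (horizontal log axis) of each of the 94 pairs, marked by arrangement, with a line at equal levels. Loci inside another (circles and diamonds) lie mostly on the side where the outer partner is higher, as in 43 of 51 pairs.

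The comparison of wood cultures with the control asked which loci changed once wood was present. Of the 168 loci, 136 had enough counts to be tested with edgeR over all genes. Averaged over the wood days, 6 rose and 5 fell relative to the control. A call needed a change of at least 2-fold and an adjusted p below 0.05. Over all 11386 genes tested the same rule called 4.19% higher and 6.76% lower. The 11 called loci are 8.09% of the 136 tested, against 27 of 480 (5.63%) in the other newly assembled loci, so the share called was near that of the whole table. The median log2 fold change was −0.06 in the overlapping loci and 0.01 over all genes, with 65 loci above 0 and 71 below. Scaling by library totals, in place of the default factors from the bulk of the genes, moved the median of all genes to 0.45 and the split to 18 loci higher and 3 lower, where 13.6% of all genes were called higher and 3.66% lower.

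Single days gave similar numbers. On day 3 edgeR called 5 loci higher and 6 lower (3.35% and 5.81% of all genes), on day 5 it called 4 and 5 (3.71% and 6.29%), on day 7 it called 6 and 7 (4.75% and 7.73%), and on day 11 it called 5 and 4 (4.51% and 6.14%). Day 11 shares no library series with the control, so its values rest on the shift between series estimated from the other days. In all, 19 of the 136 loci (14.0%) were called on at least one day, against 16.6% of all genes tested, and newGene_536 and newGene_632 (1.47%) on all 4 days, against 5.66% of all genes. None of the 19 was called in opposite directions on different days. Day 11 against day 3 gave no called locus with edgeR (0.729% of all genes higher and 0.694% lower), 16 of 136 loci (11.8%) with an unadjusted p under 0.05, where 21.6% of all genes had one, and 4 called loci among the 100 with a DESeq2 adjusted p, where 3.17% of such genes were called.

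The 11 called loci lie in 11 pairs. Both partners were called in 2 pairs, once in opposite directions (newGene_1071 and newGene_1070) and once in the same direction (newGene_707 and newGene_708). One partner was called in 9 pairs and none in the other 83. In 67 pairs both partners could be tested, and their 2 log2 fold changes had the same sign in 37 (55.22%), 19 times above 0 and 18 times below. The sign was shared in 30 of 57 pairs with overlapping exons and in 7 of 10 without, in 19 of 37 pairs with one locus inside the other, in 11 of 18 tail-to-tail pairs and in 7 of 12 head-to-head pairs. Most of the 10 pairs without overlapping exons lie in a single stretch of scaffold 11 and reuse the same loci, so they are not 10 separate cases. Opposite-strand new loci that lie within 1 kb of each other without overlapping shared the sign in 10 of 17 tested pairs (58.82%). The log2 fold changes of partners had a Pearson correlation of −0.000667 and a Spearman correlation of 0.325 across the 67 pairs, which share libraries and scaling. They differed by a median of 0.997, and by less than 1 in 34 pairs. Among these loci newGene_178, newGene_224 and newGene_782 had fitted standard errors above 100, so their signs carry no information. In the 64 pairs without them the sign was shared in 36 (56.25%), 18 times in each direction, with a Pearson correlation of 0.0204, a Spearman correlation of 0.381 and a median difference of 0.947. The sign counts over 67 pairs moved with the model: 44 of 67 pairs shared the sign without the series term, and 50 of 67 did with library totals as scaling, 36 of them above 0. In the first series alone, 36 pairs could be tested and 23 shared the sign.

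**Figure D3:**
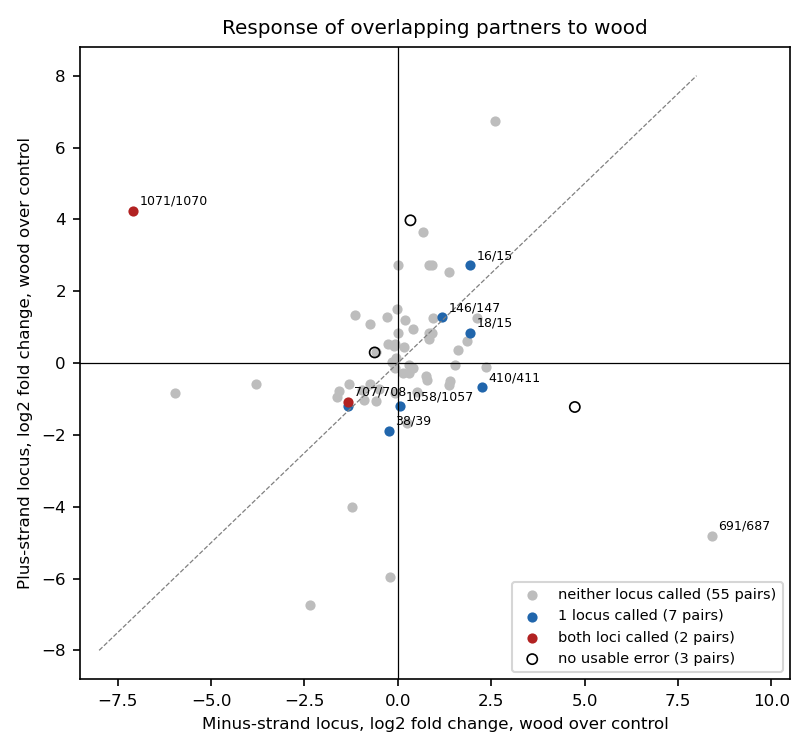
Log2 fold change of wood over control (edgeR, mean of the wood days) of the plus-strand locus (vertical axis) and the minus-strand locus (horizontal axis) in the 67 pairs with both loci tested, with open circles for the 3 pairs that hold a locus with no usable error. Points spread over all 4 quadrants, 36 of the other 64 pairs share the sign, and newGene_1071/newGene_1070 is the one pair with both loci called in opposite directions.

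The pair whose partners were called in opposite directions was newGene_1071 (plus strand, scaffold 46, 133376–134625) and newGene_1070 (minus strand, 133428–134615), nested loci whose exons share 1077 bases. newGene_1071 had 12, 101 and 32 counts on day 3, 15, 1 and 21 on day 5, 31, 82 and 26 on day 7, and 38, 23 and 25 on day 11, against 1, 0 and 1 in the control. As CPM, counts scaled to a common library size, 11 of 12 wood libraries lay above every control. Its mean was 0.758 ± 0.617 CPM with wood (SD, n = 12) and 0.0245 ± 0.0212 CPM in the control (SD, n = 3), and its log2 fold change was 4.23 (SE 1.27, adjusted p = 0.0259 by edgeR). With 2 control counts in all, the ratio of depth-scaled counts was 31.1 (95% interval from counting error, 8.55 to 257).

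newGene_1070 had 0, 0 and 12 counts on day 3, 0, 66 and 13 on day 5, 0, 45 and 15 on day 7, and 30, 11 and 45 on day 11, against 2, 16 and 11 in the control. Its 3 wood libraries of the first series were at 0, and those of the second series lay on both sides of the control. The mean was 0.418 ± 0.456 CPM with wood and 0.364 ± 0.272 CPM in the control (SD, n = 12 and 3), while the fitted log2 fold change was −7.09 (SE 2.09, adjusted p = 0.0298 by edgeR). Without the series term it was −0.11 (adjusted p = 0.96 by edgeR). The log2 ratio of the partners was 1.14 higher with wood in a test without a series term (exact two-sided permutation p = 0.0967) and 1.67 higher within the first series. The summed level of the pair was 1.18 ± 0.69 CPM with wood and 0.39 ± 0.26 CPM in the control (SD, n = 12 and 3), and the ranges overlapped. The shared bases are 90.05% of the exon bases of newGene_1071 and 97.11% of those of newGene_1070. How reads of these bases were divided was not tested. The call of newGene_1071 held within the first series (adjusted p = 0.0164 by edgeR) but was lost when any of 5 single libraries, all 3 controls among them, was left out (edgeR adjusted p up to 0.0887), and that of newGene_1070 when any of 4 was (edgeR adjusted p up to 0.0958).

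The pair whose partners fell together was newGene_707 (plus strand, scaffold 26, 56049–62836) and newGene_708 (minus strand, 61181–65550), which meet tail to tail and share 1595 exon bases. newGene_707 had 191, 284 and 405 counts on day 3, 351, 327 and 302 on day 5, 280, 268 and 243 on day 7, and 319, 473 and 372 on day 11, against 432, 317 and 608 in the control. After scaling, all 12 wood libraries lay below every control, at 7.24 ± 1.65 CPM against 16.8 ± 5.39 CPM (SD, n = 12 and 3), and the log2 fold change was −1.07 (SE 0.28, adjusted p = 0.0123 by edgeR). newGene_708 had 94 to 331 counts with wood (median 162), against 157, 177 and 475 in the control, and 11 of 12 wood libraries lay below every control after scaling. Its log2 fold change was −1.34 (SE 0.43, adjusted p = 0.0367 by edgeR).

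The log2 ratio of newGene_707 to newGene_708 differed by −0.002 between wood and control (exact two-sided permutation p = 0.985). The shared bases are 88.7% of the exon bases of newGene_707 and 60.7% of those of newGene_708. If strand was not kept, this ratio may depend on how reads of the shared bases were divided, which was not tested. Both loci had their highest count in control replicate 3. Without that library newGene_708 lost its call (adjusted p = 0.172 by edgeR), while newGene_707 kept an adjusted p of 0.0462 at a change of less than 2-fold, and the call of newGene_708 was also lost without any of 6 other libraries. The call of newGene_707 was lost without replicate 1 of day 3 too (adjusted p = 0.0639 by edgeR). newGene_709 (plus strand, 62889–65594), a second partner of newGene_708, had 0 to 24 counts with wood and 9, 11 and 2 in the control, with a log2 fold change of −1.20 ± 1.85 (SE, adjusted p = 0.677 by edgeR).

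In the other pairs with a called locus, one partner passed the test and the other did not or was too low to test. The largest change in a locus whose call held without any single library was in newGene_632 (minus strand, scaffold 22, span 65889–67181, with its one listed transcript at 66156–66473). It had 2, 35 and 64 counts on day 3, 26, 47 and 48 on day 5, 28, 57 and 63 on day 7, and 38, 29 and 33 on day 11, against 0, 0 and 0 in the control. All 12 wood libraries had reads, and the control had none. Set against a floor of 3 counts over the 3 controls, the level with wood was at least 23.9-fold higher (adjusted p = 0.00257 by edgeR for the mean of the wood days). Within the first series alone the locus was too low to test. Its partner newGene_633 (plus strand, 65955–67213), which shares 201 exon bases with it (76.1% of those of newGene_632), was also too low to test. newGene_633 had 7 counts in 1 day 5 library, 2 in 1 day 11 library and 0 in the other 10 wood libraries, against 0, 11 and 10 in the control. The summed level of newGene_632 and newGene_633 was 0.880 ± 0.346 CPM with wood and 0.264 ± 0.230 CPM in the control (SD, n = 12 and 3), and the ranges overlapped. The shared bases are 16.8% of the exon bases of newGene_633. If strand was not kept, the fold given for newGene_632 may depend on how reads of the shared bases were divided, which was not tested.

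newGene_536 (minus strand, scaffold 18, 466800–468397) was the other locus called on every day. It had 31, 44 and 38 counts on day 3, 56, 64 and 50 on day 5, 45, 48 and 34 on day 7, and 56, 48 and 50 on day 11, against 10, 18 and 8 in the control. No wood library overlapped the control, with means of 1.07 ± 0.216 CPM and 0.449 ± 0.208 CPM (SD, n = 12 and 3) and a log2 fold change of 1.44 ± 0.35 (SE, adjusted p = 0.00901 by edgeR). Within the first series the log2 fold change was 1.41 and the call was lost (adjusted p = 0.0786 by edgeR). newGene_535 (plus strand, 466787–467586), with 98.3% of its exon bases inside those of newGene_536, had 0 to 9 counts with wood and 0, 0 and 3 in the control and was too low to test.

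In the pair of newGene_410 (plus strand, scaffold 14, 66776–68408) and newGene_411 (minus strand, 66814–75204), exons shared 1540 bases, 97.6% of those of newGene_410 and 93.0% of those of newGene_411. newGene_411 had 32, 53 and 37 counts on day 3, 19, 44 and 32 on day 5, 22, 54 and 36 on day 7, and 80, 52 and 52 on day 11, against 6, 6 and 0 in the control. newGene_410 had 5, 2 and 20 counts on day 3, 29, 13 and 30 on day 5, 42, 0 and 30 on day 7, and 11, 28 and 21 on day 11, against 33, 22 and 24 in the control. After scaling, all 12 wood libraries lay above every control for newGene_411, and 11 of 12 lay below every control for newGene_410.

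newGene_411 rose with a log2 fold change of 2.27 ± 0.71 (SE, adjusted p = 0.0321 by edgeR), whereas that of newGene_410 was −0.68 (SE 1.1, adjusted p = 0.696 by edgeR). The log2 ratio of newGene_410 to newGene_411 was −0.67 ± 0.76 with wood and 1.20 ± 0.30 in the control (SD, n = 12 and 3), a difference of −1.87 with the smallest p that 12 wood and 3 control libraries allow (exact two-sided permutation p = 0.0044), and of −1.28 within the first series. The summed level of the pair was 1.41 ± 0.288 CPM with wood and 1.12 ± 0.262 CPM in the control (SD, n = 12 and 3) and the 2 ranges overlapped. The exon bases of the partners are nearly all shared, and how reads were divided between them was not tested. The call of newGene_411 was lost without replicate 1 of day 3, 5 or 7 (edgeR adjusted p up to 0.0975).

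newGene_146 (plus strand, scaffold 63, 43920–45458) and newGene_147 (minus strand, 45320–45870) share only 132 exon bases at their tails. newGene_146 had 20, 45 and 40 counts on day 3, 60, 90 and 47 on day 5, 75, 70 and 52 on day 7, and 87, 59 and 42 on day 11, against 15, 11 and 18 in the control. It rose with a log2 fold change of 1.27 ± 0.40 (SE, adjusted p = 0.0309 by edgeR), with 11 of 12 wood libraries above every control. newGene_147 had 0 to 13 counts with wood and 5, 0 and 2 in the control, with a log2 fold change of 1.18 ± 1.23 (SE, adjusted p = 0.515 by edgeR). The call of newGene_146 was lost without any of 4 single libraries, 2 of them controls (edgeR adjusted p up to 0.144).

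In newGene_38 (plus strand, scaffold 54, 35629–37009), which meets newGene_39 (minus strand, 36695–37516) tail to tail, the call rested on the series. newGene_38 had 53, 43 and 44 counts in the wood libraries of the first series, against 103, 175 and 49 in the control, and 86 to 412 counts in those of the second series. The log2 fold change was −1.90 with the series term (SE 0.46, adjusted p = 0.00959 by edgeR) and −0.40 without it (adjusted p = 0.588 by edgeR), and the call was lost without replicate 1 of day 3 (adjusted p = 0.0533 by edgeR). newGene_39 had 0 to 16 counts with wood and 7, 8 and 9 in the control, with a log2 fold change of −0.24 ± 1.44 (SE, adjusted p = 0.924 by edgeR).

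newGene_1058 (plus strand, scaffold 45, 131813–137587), a locus with 65 transcripts, ranked just outside the rule for named pairs and was added after its values were seen. It had 2607 to 4869 counts with wood (median 3502), against 5441, 5343 and 5330 in the control. All 12 wood libraries lay below every control after scaling, at 82.3 ± 15.5 CPM against 200 ± 3.54 CPM (SD, n = 12 and 3), with a log2 fold change of −1.21 ± 0.17 (SE, adjusted p = 0.000397 by edgeR) that held without any single library. newGene_1057 (minus strand, 132050–137390), whose exons lie wholly within those of newGene_1058, had 2 to 18 counts with wood and 2, 3 and 1 in the control, with a log2 fold change of 0.05 ± 0.77 (SE, adjusted p = 0.969 by edgeR). The log2 ratio of newGene_1058 to newGene_1057 was 1.55 lower with wood (exact two-sided permutation p = 0.0044, without a series term) and 1.35 lower within the first series. For this ratio 0.5 CPM was added to each locus, while newGene_1057 had means of 0.193 CPM with wood and 0.0746 CPM in the control. The ratio therefore largely repeats the fall of newGene_1058.

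**Figure D4:**
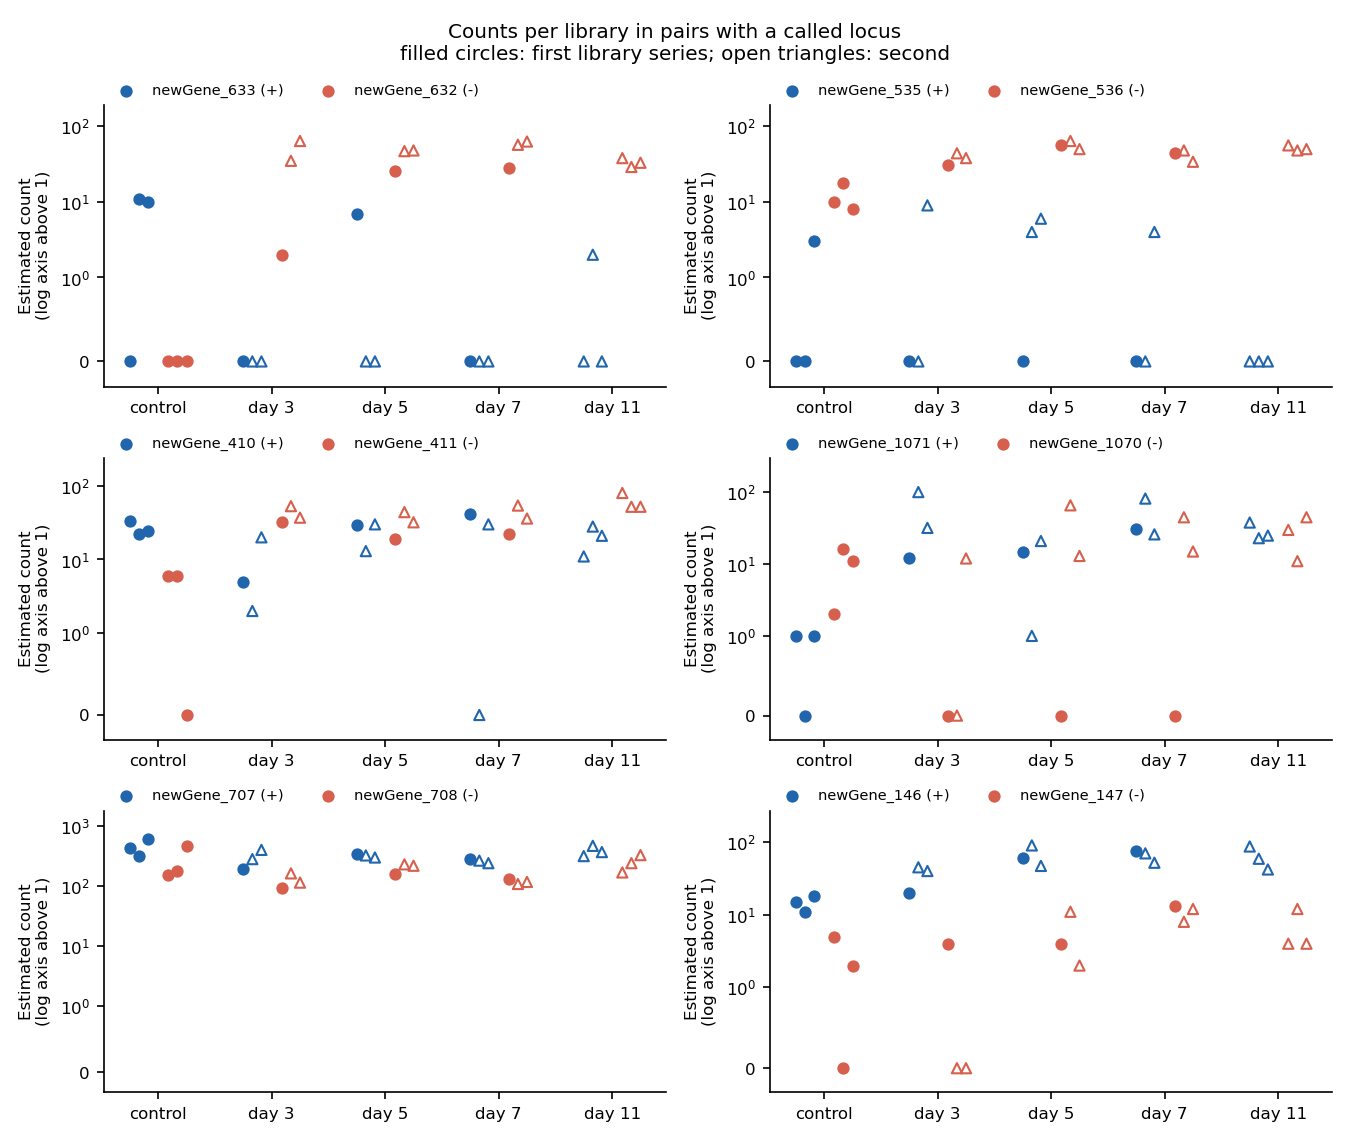
Estimated counts per library (log axis above 1, not scaled for depth) in 6 pairs with a called locus, by group, with the plus-strand locus in blue and the minus-strand locus in red. newGene_632 has reads in each of 12 wood libraries and in no control, newGene_707 lies above newGene_708 in all 15 libraries, and newGene_1070 is at 0 in the first-series wood libraries.

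The loci with the most partners stood in one stretch of scaffold 11, where newGene_16 (plus strand, 4538–13219) and newGene_18 (plus strand, 5814–15085) each overlapped 4 minus-strand loci: newGene_14, newGene_15, newGene_19 and newGene_20. In 6 of the 8 pairs the exons did not overlap. newGene_15 (4488–13469) had 17, 25 and 26 counts on day 3, 27, 15 and 31 on day 5, 28, 77 and 28 on day 7, and 48, 41 and 43 on day 11, against 3, 4 and 8 in the control. No wood library overlapped the control, with a log2 fold change of 1.93 ± 0.54 (SE, adjusted p = 0.0192 by edgeR), and the call was lost without control replicate 1, control replicate 2 or replicate 1 of day 5 (edgeR adjusted p up to 0.088).

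newGene_16, all of whose 668 exon bases lie in exons of newGene_15, had 4 to 16 counts with wood and 0, 0 and 2 in the control. Its 12 wood libraries also lay above every control, with a log2 fold change of 2.72 (SE 1.02) that missed the threshold (adjusted p = 0.0649 by edgeR) and a ratio of 8.55 (95% interval from counting error, 2.31 to 71.5). newGene_20, with 29 to 84 counts with wood and 15, 15 and 18 in the control, had a log2 fold change of 0.91 ± 0.31 (SE, adjusted p = 0.0434 by edgeR), under 2-fold, and was called higher on day 11 alone (log2 fold change 1.36, adjusted p = 0.0277 by edgeR). newGene_19, with 91 to 256 counts with wood and 56, 39 and 48 in the control, had one of 0.84 (SE 0.35, adjusted p = 0.0905 by edgeR). newGene_18, with 128 to 354 counts with wood and 56, 107 and 124 in the control, had one of 0.83 (SE 0.39, adjusted p = 0.139 by edgeR). newGene_14 had a log2 fold change of −0.002 ± 0.15 (SE, adjusted p = 0.996 by edgeR), with 269 to 445 counts with wood and 253, 248 and 197 in the control. In this stretch 5 of 6 loci thus had a positive log2 fold change and 1 of them, newGene_15, passed both thresholds in the mean of the wood days.

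newGene_1092 (minus strand, scaffold 47, 222442–225082) overlapped 3 plus-strand loci, of which newGene_1093 and newGene_1095 were too low to test. newGene_1092 had 72 to 117 counts with wood and 85, 87 and 69 in the control, with a log2 fold change of −0.26 ± 0.22 (SE, adjusted p = 0.399 by edgeR). newGene_1094, which lies inside it, had 0 to 64 counts with wood and 0, 1 and 9 in the control, with a log2 fold change of 0.53 ± 1.73 (SE, adjusted p = 0.856 by edgeR).

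None of the 4 most abundant pairs held a locus called in the mean of the wood days. newGene_287 (plus strand, scaffold 87, 1–27875; 91 transcripts) and newGene_286 (minus strand, 1–27876; 90 transcripts) share 18864 exon bases, the longest exon overlap of the 94 pairs. newGene_286 had 53109 to 364164 counts with wood and 66145, 80997 and 110216 in the control, and newGene_287 had 23466 to 273805 with wood and 32224, 57957 and 61978 in the control. Both were highest in the unnumbered day 5 library. The log2 fold changes were −0.92 for newGene_286 (SE 0.43, adjusted p = 0.137 by edgeR) and −1.03 for newGene_287 (SE 0.73, adjusted p = 0.324 by edgeR).

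newGene_800 (minus strand, scaffold 3, 785863–787045) had the highest mean level of all 168 loci, 852 FPKM, and its tail-to-tail partner newGene_816 (plus strand, 785816–786930) a mean of 75.0 FPKM. newGene_816 had 2459, 8771 and 30 counts on day 3, 4061, 3739 and 4864 on day 5, 1, 11940 and 5454 on day 7, and 1816, 2576 and 4166 on day 11, against 1, 2888 and 3031 in the control. It was thus at 1 or 30 counts in 3 libraries and at 1816 or more in the other 12. newGene_800 had 2271 to 73137 counts with wood and 29889, 37590 and 16032 in the control. Neither was called, with log2 fold changes of −0.58 for newGene_816 (SE 2.15, adjusted p = 0.875 by edgeR) and −0.74 for newGene_800 (SE 0.94, adjusted p = 0.608 by edgeR).

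Also among the 4 most abundant pairs, newGene_992 (minus strand, scaffold 40, 329914–331627) had 1717 to 3702 counts with wood and 1909, 1469 and 1224 in the control, with a log2 fold change of −0.21 ± 0.13 (SE, adjusted p = 0.269 by edgeR). Its inner partner newGene_993 (plus strand, 329955–330861) had 0, 59 and 34 counts on day 3, 0, 32 and 32 on day 5, 0, 0 and 76 on day 7, and 56, 54 and 0 on day 11, against 6, 9 and 0 in the control. newGene_993 was at 0 in all 3 first-series wood libraries. Its log2 fold change was −5.97 with the series term (adjusted p = 0.189 by edgeR) and 1.69 without it (adjusted p = 0.512 by edgeR).

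The other pairs with the longest exon overlaps held no locus called in the mean of the wood days. newGene_150 (plus strand, scaffold 63, 99777–104338) and newGene_151 (minus strand, 99703–103969) share 4193 exon bases, and their log2 fold changes were −0.71 (SE 0.54, adjusted p = 0.367 by edgeR) and −0.51 (SE 0.28, adjusted p = 0.207 by edgeR). newGene_151 had 93 to 200 counts with wood and 148, 129 and 175 in the control, and all 12 wood libraries lay below every control after scaling. newGene_235 (plus strand, scaffold 74, 48226–53138) and newGene_234 (minus strand, 48950–53437) share 4132 exon bases, with log2 fold changes of −0.75 (SE 0.32, adjusted p = 0.101 by edgeR) and −0.95 (SE 0.23, adjusted p = 0.0101 by edgeR, under 2-fold). newGene_234 was called lower on days 5, 7 and 11, and its value without the series term was −0.22 (adjusted p = 0.582 by edgeR).

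The widest gaps between partners' log2 fold changes, beside that of newGene_1071 and newGene_1070, came from pairs that were at or near 0 in some libraries and high in others. newGene_687 (minus strand, scaffold 25, 255882–257451) had 17152 counts in 1 day 7 library and 17417 in 1 day 11 library, 26 and 56 in 2 other wood libraries and 0 in the remaining 8, against 6, 0 and 0 in the control. newGene_691 (plus strand, 255377–257466), whose exons cover all those of newGene_687, had 1831, 2182 and 1 counts on day 3, 0, 3325 and 434 on day 5, 2, 5083 and 1373 on day 7, and 1262, 4 and 4843 on day 11, against 8650, 0 and 2519 in the control. In the day 11 library with 17417 counts of newGene_687, newGene_691 had 4, and in the day 7 library with 17152 it had 5083. Their log2 fold changes were 8.41 for newGene_687 (SE 5.00, adjusted p = 0.24 by edgeR) and −4.82 for newGene_691 (SE 4.06, adjusted p = 0.415 by edgeR). In the third such pair, newGene_782 (minus strand, scaffold 29, 116436–124063) had 106, 54 and 154 counts on day 7, 0, 4 and 143 on day 11 and 0 in all libraries of days 3 and 5, against 0 in all 3 controls. newGene_781 (plus strand, 116420–124330) had 20, 162 and 24 counts on day 7 and 263, 32 and 64 on day 11, at least 124 on days 3 and 5, and 140, 124 and 106 in the control. For newGene_782 the fit gave no usable error, so its pair stands here by a fitted value that is not read as a change.

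A swap of this kind within one group was counted by a rule chosen after the data were seen: one partner at 0 and the other at 10 counts or more in one library, and the reverse in another library of the same group. It was met by 8 of 94 pairs (8.51%), in a wood group for 6 and in the control for 3, against 1 of 27 pairs (3.70%) of opposite-strand new loci within 1 kb that do not overlap. Asked over all libraries, whatever their group, it was met by 18 of 94 pairs (19.1%) and 1 of 27 (3.70%). Exons overlapped in all 8 pairs, as they did in 82 of the 94, and one locus lay inside the other in 6.

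newGene_344 (plus strand, scaffold 12, 278699–281255) had 0, 2 and 0 counts on day 3 and 123, 838 and 190 on day 11, against 101, 0 and 0 in the control. newGene_345 (minus strand, 278923–281255) had 0, 71 and 95 counts on day 3 and 0 in every library of day 11, against 0, 107 and 0 in the control. For newGene_757 (plus strand, scaffold 28, 113949–116224) and newGene_758 (minus strand, 114758–116154) the day 7 counts were 114, 0 and 115 for newGene_757 and 0, 30 and 22 for newGene_758, and the control counts were 50, 106 and 0 for newGene_757 and 7, 0 and 19 for newGene_758. In the control of both pairs, and on day 7 for newGene_757 and newGene_758, one library held reads of the plus-strand locus only and another held reads of the minus-strand locus only.

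**Figure D5:**
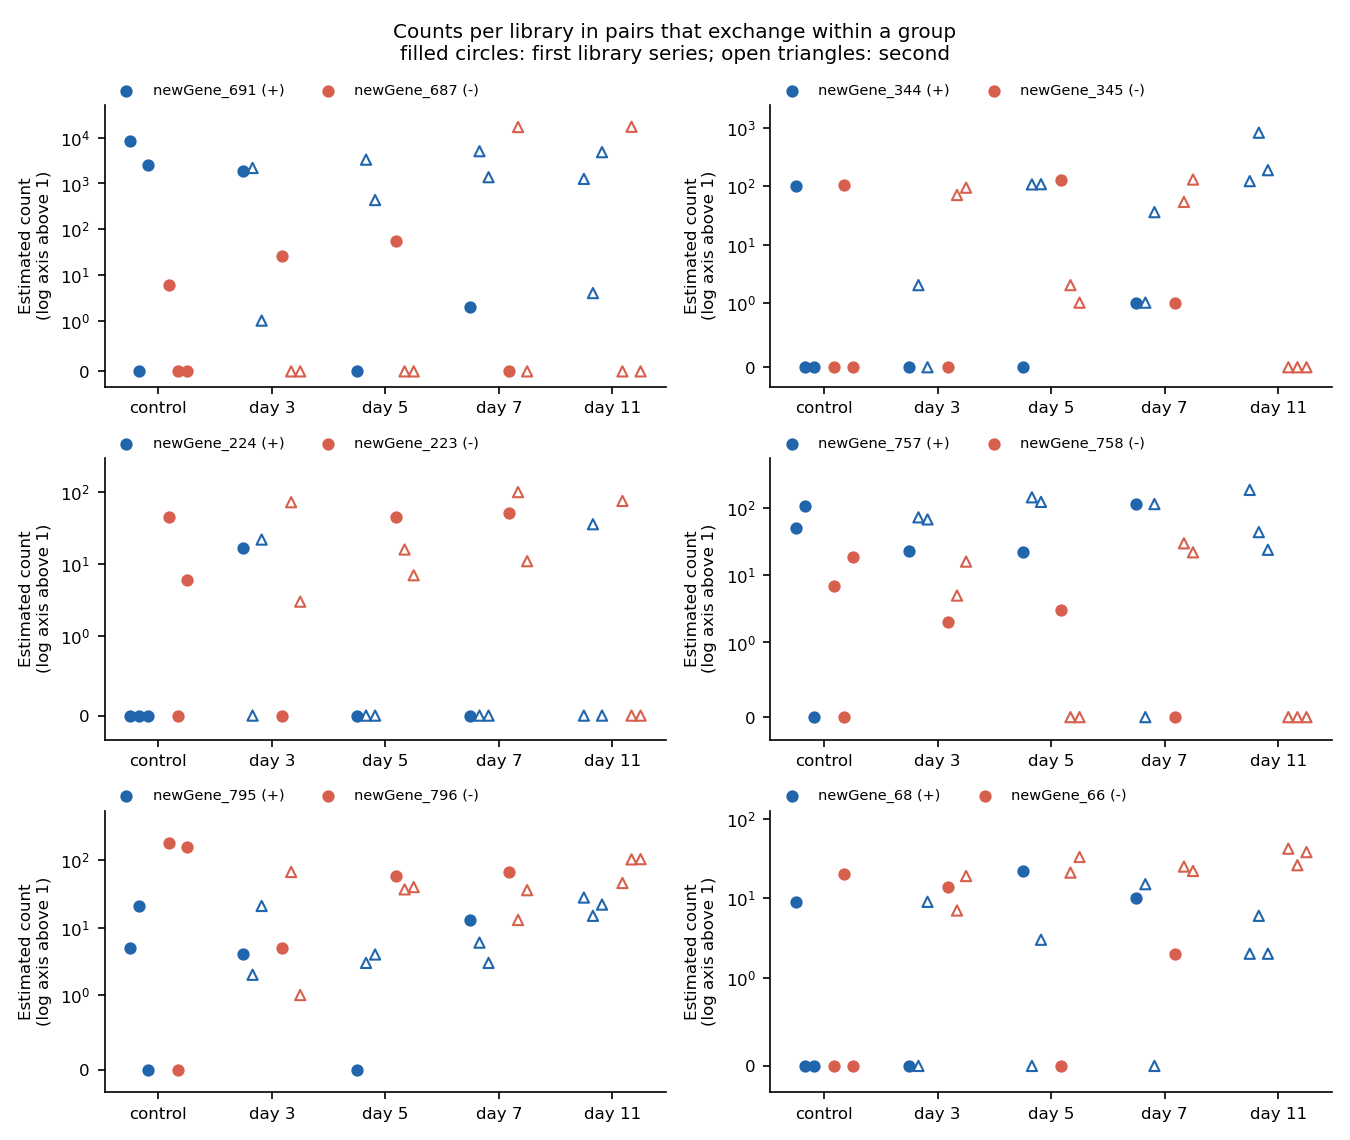
Estimated counts per library (log axis above 1, not scaled for depth) in 6 of the 8 pairs that swap within a group, by group, with the plus-strand locus in blue and the minus-strand locus in red. Within single groups both loci spread between 0 and 10 or more counts, as for newGene_344 and newGene_345 at 101 and 107 counts in different controls.

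Whether partners moved by different amounts was tested in each of the 67 pairs by the log2 ratio of their CPM values (0.5 CPM added). This test over all 15 libraries had no series term, and because 0.5 CPM was added after scaling, the ratios of low loci depend on the scaling and on the constant. An unadjusted exact two-sided permutation p under 0.05 was found in 11 pairs (16.4%), with differences of 0.42 to 1.87 in size, and in 4 of 17 pairs (23.5%) that lie within 1 kb without overlapping, so the share was no higher in the overlapping pairs. For newGene_1094 and newGene_1092 the ratio was 0.90 higher with wood over all libraries (exact two-sided permutation p = 0.0396) and 0.37 higher within the first series, where 3 wood and 3 control libraries allow no p below 0.1. Exons overlapped in 10 of the 11, and the partners' log2 fold changes had the same sign in 3. Adding 0.5 CPM understates the change of low loci, and the choice mattered in such pairs. The ratio of newGene_16 to newGene_15 differed by −0.42 (exact two-sided permutation p = 0.0484), and by −0.24 with 0.1 CPM added (exact two-sided permutation p = 0.435). That sign is opposite to the one given by mean CPM with nothing added, at 0.209 for newGene_16 and 0.758 for newGene_15 with wood, against 0.0249 and 0.186 in the control, so no direction is read for this pair. The difference for newGene_661 and newGene_662, 0.46 (exact two-sided permutation p = 0.0352), was opposite in sign to that of their fitted log2 fold changes. The ratio of newGene_146 to newGene_147 differed by 0.62 (exact two-sided permutation p = 0.0132), and by 0.71 with 0.1 CPM added (exact two-sided permutation p = 0.114). For newGene_410 and newGene_411 the difference was −3.48 with 0.1 CPM added, again at the smallest p possible (exact two-sided permutation p = 0.0044).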

How the data were processed

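Per the labels' protocols, the 15 libraries were made from poly-A RNA. HISAT2, StringTie, DESeq2 and DESeq 1.10.1 appear in the submitters' processing notes with no role stated. The genome build is not given in these sources. The authors deposited estimated counts and FPKM values per gene and library, with an annotation of new loci that gives scaffold positions and strands. Counts were used as deposited. In 92 overlapping loci with a single transcript, 734 of 734 counts from 1 to 50 lay within 1 of FPKM times length, scaled per library and rounded up, so they are estimates that pass through the authors' FPKM.

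Titles tied each column to its sample. One day 5 count column carries no matching number, and it served as a library of day 5 without a number, in the second series. Its FPKM values were taken from the column of day 5 replicate 3, the only FPKM column that no count column matches by name. The labels call the samples biological replicates.

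Counts were fitted in R 4.3.3 with edgeR 4.0.16 (filterByExpr, TMM factors, robust quasi-likelihood) over all 15 libraries with group and library series as terms, leaving 9 residual degrees of freedom and a biological coefficient of variation of 38.8%. P-values were adjusted over 11386 genes by Benjamini-Hochberg. The SE of a log2 fold change is its size divided by the square root of the F statistic. Because of the series term, a log2 fold change can differ from the ratio of group means. Counting intervals cover counting error only. On simulated counts for 11386 genes, the mean of the wood days against control recovered 30% of 2-fold and 63% of 4-fold changes. These rates rest on an adjusted p under 0.05 by edgeR alone, without the 2-fold limit of a call. The simulation changed genes of all levels and held no shift between series, so the rates may not hold for the overlapping loci. Ratios of partners were tested with SciPy 1.17.1 in Python 3.11.15.

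Alternatives were DESeq2 1.42.0, other scaling factors, no filter, no series term, the first series alone, a replicate block, limma 3.58.1 on log2 FPKM with 0.1 or 1 added, and leaving out each library. The loci, lists, rules and tests were chosen with earlier results of these data known. Named pairs were the first 10 with a called locus by size of change, the 4 most abundant, the 3 with the widest gap between partners, the 3 with the longest exon overlap, and all pairs of the 3 loci with the most partners (newGene_1092 and newGene_330 tied at 3, and newGene_1092 had the longer summed span overlap). No locus was called for day 11 against day 3, so that part of the rule named none.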

Additional observations from a re-analysis of the deposited data

How the results depend on the processing

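Of the 11 loci called in the mean of the wood days, all 11 kept the call with DESeq2, 9 without the series term (newGene_1070 and newGene_38 lost it), 3 of the 9 testable there in the first series alone (newGene_1058, newGene_1071 and newGene_707), 1 with the replicate block (newGene_632, in a fit that leaves out the unnumbered library; newGene_1058 was at −0.98) and 3 without any single library (newGene_1058, newGene_536 and newGene_632). The main fit called 11 of 136 tested. On those 136 loci the number called was 17 without the series term and 21 with library totals. Limma on log2 FPKM gave 21 and 4 with 0.1 and 1 added. DESeq2 gave 19, the first series alone 5, the replicate block 5, and fits with one library left out 7 to 15. Such fits choose the loci to test anew, so their counts need not be out of the same 136. Among all genes, library totals called 13.6% higher and 3.66% lower. The share of all genes is not given for the other alternatives, except DESeq2 for day 11 against day 3. The counts here and by day below are therefore not read as a result about the overlapping loci. Day 3 (11 called) gave 2 with limma and 1 FPKM added, 0 with the replicate block, and 2 to 10 with one library left out. Day 5 (9 called) gave 14 with DESeq2 and with library totals, 5 with limma and 1 FPKM added, 4 with the replicate block, and 4 to 10 with one left out. Day 7 (13 called) gave 20 and 7 with limma and 0.1 and 1 FPKM added, 6 with the replicate block, and 7 to 14 with one left out. Day 11 (9 called) gave 15 with DESeq2, 20 with library totals, 20 with limma and 0.1 FPKM added, 1 with the replicate block, and 5 to 13 with one left out. Day 11 against day 3 (0 called) gave 4 with DESeq2, 1 with either limma fit and 0 to 2 with one left out. The cause of these differences was not tested. Low counts left 32 of the 168 loci untested in the main fit, though other settings tested some of them. Among these, newGene_1131 had 0 to 12 counts with wood and 18, 4 and 8 in the control. After scaling, 11 of 12 wood libraries lay below every control. Its log2 fold change was −6.46 with DESeq2 (adjusted p = 0.024 by DESeq2) and −9.59 with the replicate block (adjusted p = 0.0452 by edgeR). The main fit did not use the replicate numbers to pair the samples. Of 26 same-numbered pairs of libraries, 4 had deviations correlated above 0.1 (−0.05 to 0.42). The highest correlations, 0.23 to 0.42, were between replicate 1 of days 3, 5 and 7. Those are also the wood libraries of the first series, so number and series cannot be told apart there.

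Beside the called loci, the log2 fold changes and partner differences of the named pairs and of newGene_1058/newGene_1057 were recomputed; other pairs were not. No called locus changed sign. Leaving out loci with no usable error, a choice made after seeing the data, gave 36 sign-sharing pairs in place of 37. Library totals moved the median of all genes by 0.44, and with that shift newGene_1092 was at 0.18, newGene_14 at 0.44, newGene_39 at 0.21 and newGene_992 at 0.24. The other turns of sign, in values that were not called, follow, and their cause was not tested. With limma and 0.1 or 1 FPKM added, newGene_1092 was at 0.17 and 0.11, newGene_14 at 0.48 and 0.40, newGene_816 at 0.021 and 0.037 and newGene_992 at 0.26 and 0.25. newGene_14, at −0.002, was also at 0.0016 in the first series, 0.011 without the filter and 0.046 with upper-quartile factors. DESeq2 put newGene_39 at 0.075. Without the series term newGene_816 was at 0.28, newGene_992 at 0.18 and newGene_993 at 1.69, and with the replicate block newGene_1057 was at −0.39 and newGene_816 at 2.72. With 0.1 CPM and with 0.1 FPKM added, the difference of newGene_16/newGene_19 was 0.25 and 0.071 and that of newGene_16/newGene_20 was 0.46 and 0.48, and with 0.1 CPM that of newGene_707/newGene_708 was 0.035. In the first series alone, differences were 0.20 for newGene_18/newGene_20, 0.22 for newGene_235/newGene_234, −0.99 for newGene_38/newGene_39, 0.14 for newGene_707/newGene_708 and −0.29 for newGene_993/newGene_992. With one library left out, log2 fold changes ranged from −0.58 to 0.47 for newGene_1057, −0.57 to 3.09 for newGene_1094, −0.11 to 0.063 for newGene_14, −0.32 to 2.32 for newGene_147, −2.30 to 0.65 for newGene_39 and −1.89 to 0.37 for newGene_816. Partner differences then ranged from −0.31 to 0.12 for newGene_18/newGene_20, −0.17 to 0.080 for newGene_235/newGene_234, −0.40 to 0.44 for newGene_38/newGene_39, −0.25 to 0.27 for newGene_707/newGene_708 and −1.03 to 3.26 for newGene_816/newGene_800.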
